A study of Mus musculus with 6 samples.

Results

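Messenger RNAs of the globin chains and of the alpha-globin chaperone were examined in bone marrow erythroblasts of mice recovering from hemolytic anemia. The genes were the adult alpha globins Hba-a1 and Hba-a2, the adult beta globin Hbb-b2, the embryonic globins Hba-x, Hbb-y and Hbb-bh1, and Ahsp. They were chosen by the gene name that the array gives each non-control probe, and 8 of 55681 probes carried such a name, with 2 probes for Hbb-y and 1 for each of the other genes. A probe entered the test when all 3 arrays of either genotype read it well above background, which held for 7 of the 8 probes and 6 of the 7 genes. Hba-x was measured but not tested.

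The arrays compared P38α+/- with P38α-/- mice, 3 of each, and asked how the dose of P38α, a stress-activated kinase, changes gene expression in stress erythropoiesis. Both genotypes carried Mx1-Cre, a recombinase gene that interferon switches on in blood cells and in other tissues, together with P38α fl/+ or P38α fl/fl alleles on a C57Bl/6 background, so the control mice had also lost an allele. All mice, male and female, received 3 injections of 300 µg PolyIC at 6 to 8 weeks of age to induce Cre and then rested for 6 weeks. They were given a single dose of 100 mg/kg phenylhydrazine (PHZ), an oxidant that lyses red cells, and on day 4 of recovery CD71highTer119+ erythroblasts were sorted from their bone marrow. RNA of each mouse, 10 ng, was amplified, labelled and hybridised to a 1-colour array.

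Hemoglobin is a tetramer of alpha-like and beta-like chains with a heme in each chain. In the mouse, red cells of the yolk sac carry the embryonic chains zeta (Hba-x), epsilon-y (Hbb-y) and beta-h1 (Hbb-bh1), and definitive erythroblasts of liver and marrow make adult alpha and beta chains at very high levels. Free alpha chains are unstable and oxidise readily, and Ahsp binds them until they pair with a beta chain.

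Between 28.9% and 53.0% of the probes were well above background on an array, and no spot was saturated. P38α+/- replicate 1 had the highest share and stood apart, with rank correlations of 0.764 to 0.815 to the other arrays against 0.853 to 0.893 among the other 5, so results are also given without it. Mapk14, the gene of P38α, was not lower in the arrays labelled P38α-/-. Its probe at base 3532 of the transcript read 1.05 ± 0.26 (SD, n = 3) on the scaled log2 scale in those arrays and 0.50 ± 0.16 in P38α+/- arrays (log2 fold change 0.54, adjusted p = 0.187), and its dim probe at base 1134 differed by 0.01. Which exons are removed is not given in the sources used here, so a probe outside the deleted part would not check the genotype. Called genes were those with a limma adjusted p up to 0.05 and a fold of 2 or more. There were 27 of 14139, or 0.191%, with 21 higher and 6 lower in arrays labelled P38α-/-, and 63 with replicate number as a block.

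The probes decide which transcripts are read, and 5 of them are shown, for an adult and an embryonic gene of each cluster and for Ahsp. Capitals mark the stretch in which the Hba-a1 and Hbb-b2 probes align without gaps, CCNAGGTNAAGGNNCANGGCAANAAG, with 20 of 26 bases identical. No other of the 55681 probes held it, which is 0.00359% for both together. Sequences are those on the array, 5′ to 3′ along the transcript, at the bases of the transcript given in each line's name.
Hba-a1, from base 161: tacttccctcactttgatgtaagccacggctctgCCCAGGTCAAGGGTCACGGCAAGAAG
Hbb-b2, from base 195: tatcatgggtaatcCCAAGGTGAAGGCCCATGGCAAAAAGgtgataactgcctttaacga
Hba-x, from base 258: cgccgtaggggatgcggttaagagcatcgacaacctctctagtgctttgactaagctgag
Hbb-y, from base 379: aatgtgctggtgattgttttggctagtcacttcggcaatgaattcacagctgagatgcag
Ahsp, from base 177: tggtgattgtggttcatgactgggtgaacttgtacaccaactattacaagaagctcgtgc
In the mm9 build the Hba-a1 probe lies at chr11:32183955-32184014 and the Hba-x probe at chr11:32177668-32177727, both on the plus strand. The Hbb-y probe shown lies on the minus strand at chr7:111000448-111000507. The array annotation gave no position for the Hbb-b2 and Ahsp probes. Each of the 2 adult alpha probes was annotated to the RefSeq transcripts of both Hba-a1 and Hba-a2, so neither reads a single gene and the 2 genes cannot be told apart.

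The promoters of 2 adult and 2 embryonic genes are shown because the adult and embryonic kinds differed widely in signal and lie side by side in the same clusters. Each line holds the 150 bases before the transcription start in GRCm38.p6 (RefSeq). Capitals mark matches on either strand to 4 short motifs. They are CCAAT, which CCAAT-box factors bind, CACCC, which Klf1 and its relatives bind, TATAA, the letters of the TATA box, and GATAA, which Gata1 binds. No matches overlapped in these 4 windows.
Hba-a1: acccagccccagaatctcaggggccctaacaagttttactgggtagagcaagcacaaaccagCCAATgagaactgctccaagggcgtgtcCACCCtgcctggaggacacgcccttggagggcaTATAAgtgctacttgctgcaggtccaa
Hbb-bs: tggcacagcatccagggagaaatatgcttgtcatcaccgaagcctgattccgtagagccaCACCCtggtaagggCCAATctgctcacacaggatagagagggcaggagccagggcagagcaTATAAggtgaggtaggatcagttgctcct
Hba-x: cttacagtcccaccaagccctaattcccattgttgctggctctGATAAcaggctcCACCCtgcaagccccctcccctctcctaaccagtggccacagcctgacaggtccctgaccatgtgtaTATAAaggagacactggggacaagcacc
Hbb-y: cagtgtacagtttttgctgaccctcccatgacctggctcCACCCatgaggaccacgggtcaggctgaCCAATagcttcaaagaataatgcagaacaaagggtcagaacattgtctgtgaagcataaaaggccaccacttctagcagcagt
The windows lie at chr11:32283522-32283671 (Hba-a1, plus strand), chr7:103827929-103828078 (Hbb-bs, minus strand), chr11:32276450-32276599 (Hba-x, plus strand) and chr7:103853208-103853357 (Hbb-y, minus strand). All 4 held CACCC, as did 37.4% of the 32851 promoter windows of the same length. CCAAT was in all but Hba-x against 24.5% of windows, TATAA in all but Hbb-y against 14.2%, and GATAA was in Hba-x against 13.3%. The Hba-a1 and Hba-a2 windows of 300 bases were identical over all 297 bases that they share, whereas Hba-a1 and Hba-x matched at 28.5% of bases. Hbb-bs, an adult beta gene of this mouse background, matched the neighbouring adult gene Hbb-bt at 56.2% and Hbb-y at 32.4% of bases. Hbb-bh1, Hbb-b2 and Ahsp were not matched in the promoter table.

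Hba-a1 was the brightest of all probes on every array. Its processed signal, in arbitrary units after background subtraction, was 482029, 461877 and 442615 in P38α+/- replicates 1, 2 and 3 and 463269, 496872 and 432131 in arrays labelled P38α-/-. The genotypes overlapped, and the highest array was 1.15 times the lowest. The mean spot brightness was 54.1% to 60.1% of the scanner's saturation value. Hba-a2 read 303735, 294107 and 289753 in P38α+/- and 278179, 308323 and 265182 in arrays labelled P38α-/-, at ranks 6, 6 and 9 and 5, 6 and 9. The brightness of a probe depends on its own sequence as well as on the transcript, so ranks order probes and not molecules.

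**Figure D1:**
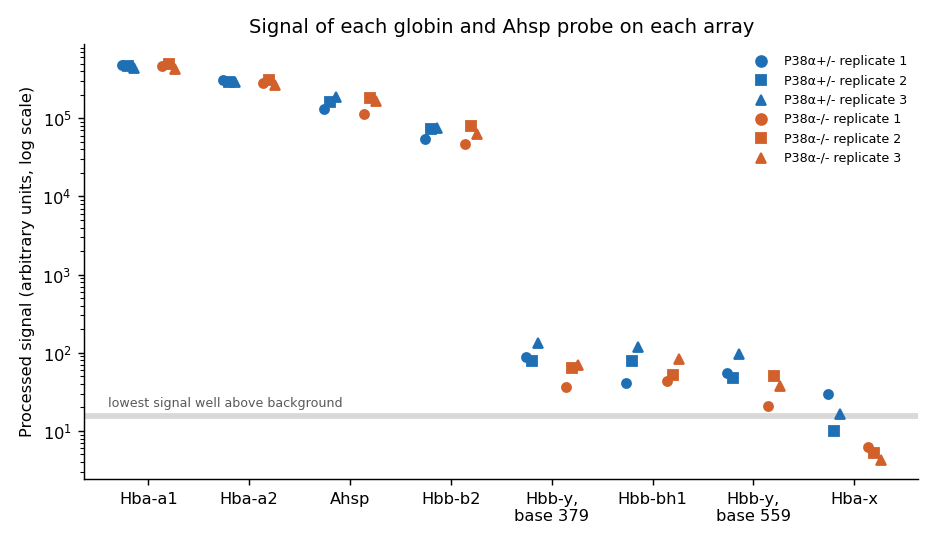
Processed signal (arbitrary units, log scale) of the 8 globin and Ahsp probes on the 6 arrays, with P38α+/- in blue, arrays labelled P38α-/- in orange and a marker shape for each replicate; the grey band spans the lowest signals called well above background on the arrays. The adult globin and Ahsp probes lay at 46461 or higher on all arrays, and every embryonic probe at 132 or lower.

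Signals were then scaled by the 75th percentile of each array, taken over probes that every array read well above background. On this scale Hba-a1 read 8.63 ± 0.52 (log2, SD, n = 3) in P38α+/- and 8.63 ± 0.56 in arrays labelled P38α-/-. Its log2 fold change was -0.00017 with a 95% interval of -0.90 to 0.90 (SE 0.37, limma adjusted p = 1.00). For Hba-a2 it was -0.07 with an interval of -0.93 to 0.80 (SE 0.36, adjusted p = 0.937). The difference of either alpha probe was thus smaller than the spread of its scaled values between arrays of a genotype, within wide intervals. That spread includes the scaling of the arrays and is not a measure of the mice alone. With replicate number as a block the SE was 0.13 for Hba-a1 and 0.12 for Hba-a2. In sorted samples such as these, fewer cells of a type and less RNA per cell cannot be told apart.

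Hbb-b2, the adult beta globin probe among the members, read 54654, 72418 and 75815 in P38α+/- and 46461, 80193 and 62951 in arrays labelled P38α-/-, at ranks between 99 and 158. Replicate 1 was the lowest of each genotype, and the genotypes overlapped. The log2 fold change was -0.12 with an interval of -0.58 to 0.34 (SE 0.19, adjusted p = 0.754). Hbb-b2 is a beta gene of the diffuse haplotype, while C57BL/6 mice carry Hbb-bs and Hbb-bt in its place. Which of these near-identical transcripts bound the probe was not tested.

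Probes that matched the beta genes of this background gave like differences. The Hbb-b1 probe, which matched Hbb-bt by its transcript accession, read 303048, 301203 and 309353 in P38α+/- and 278134, 339622 and 269385 in arrays labelled P38α-/-, at ranks 5 to 8. The Beta-s probe, which matched Hbb-bs, read 65328, 98799 and 110729 in P38α+/- and 56831, 130512 and 92224 in arrays labelled P38α-/-. Their log2 fold changes were -0.05 (SE 0.33, adjusted p = 0.944) and -0.03 (SE 0.15, adjusted p = 0.943). The 5 adult globin probes together held 3.07%, 2.25% and 1.99% of all probe signal in P38α+/- and 3.18%, 2.14% and 2.04% in arrays labelled P38α-/-. The shares overlapped, with means of 2.44% and 2.45% (exact permutation test, two-sided, p = 0.9).

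Ahsp, the chaperone, read 132538, 161151 and 185491 in P38α+/- and 114831, 181928 and 164755 in arrays labelled P38α-/-. It was at ranks 26 to 32 on all arrays, with a mean rank of 28.7 in both genotypes. On the scaled log2 scale it read 7.08 ± 0.23 and 7.01 ± 0.22 (SD, n = 3). The log2 fold change was -0.07 with an interval of -0.55 to 0.40 (SE 0.20, adjusted p = 0.868). The log2 ratio of Ahsp to Hba-a1 within an array was -1.86, -1.52 and -1.25 in P38α+/- and -2.01, -1.45 and -1.39 in arrays labelled P38α-/- (exact permutation test, two-sided, p = 0.7). The genotypes overlapped, and the ratio was lowest on both replicate 1 arrays, the dimmest of each genotype.

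**Figure D2:**
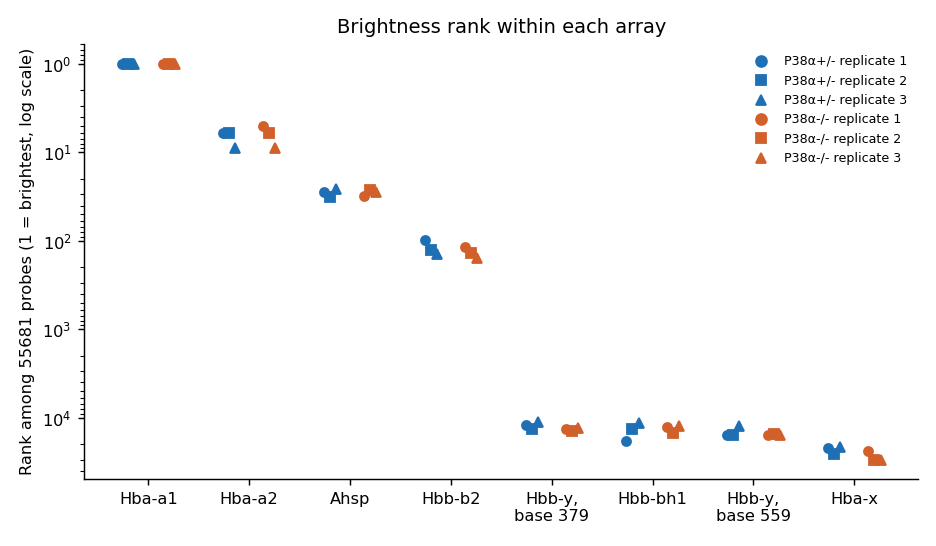
Brightness rank of each globin and Ahsp probe among all non-control probes of the same array (log scale, 1 is the brightest), with P38α+/- in blue and arrays labelled P38α-/- in orange. Hba-a1 was at rank 1 on all 6 arrays, Ahsp between 26 and 32, and the embryonic probes at ranks of 11278 or lower in the order.

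The order Hba-a1, Hba-a2, Ahsp and Hbb-b2 was the same on 6 of 6 arrays. All 4 were brighter than every embryonic probe. Between the brighter Hbb-y probe and Hbb-bh1 the order was not fixed, with Hbb-y brighter on 4 of 6 arrays, and Hba-x was the dimmest member on every array. Mean ranks of Hbb-b2 were 122 in P38α+/- and 138.0 in arrays labelled P38α-/- (exact permutation test, two-sided, p = 0.5). Among Hba-a1, Hba-a2, Ahsp and Hbb-b2, the genotypes' ranks overlapped for each, and so did those of both Hbb-y probes. At base 379 Hbb-y was at ranks 12029, 13334 and 11278 in P38α+/- and 13310, 14072 and 13128 in arrays labelled P38α-/- (exact permutation test, two-sided, p = 0.3). At base 559 it was at ranks 15551, 15670 and 12436 against 15766, 15092 and 15672 (exact permutation test, two-sided, p = 0.5).

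The brightest globin probes did not follow the overall brightness of the arrays. The scaling percentile was 814 and 748 in replicate 1 of P38α+/- and of arrays labelled P38α-/-, and between 1309 and 1576 on the other arrays, a range of 2.11-fold. Over the same arrays the unscaled signal ranged 1.15-fold for Hba-a1, 1.16-fold for Hba-a2 and 1.26-fold for Hbb-b1. It ranged 1.62-fold for Ahsp, 1.73-fold for Hbb-b2 and 2.30-fold for Beta-s. Division by the percentile therefore placed Hba-a1 at 9.21 and 9.27 in replicates 1 and between 8.21 and 8.46 on the other arrays. Whether these probes were near the top of their response was not tested.

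**Figure D3:**
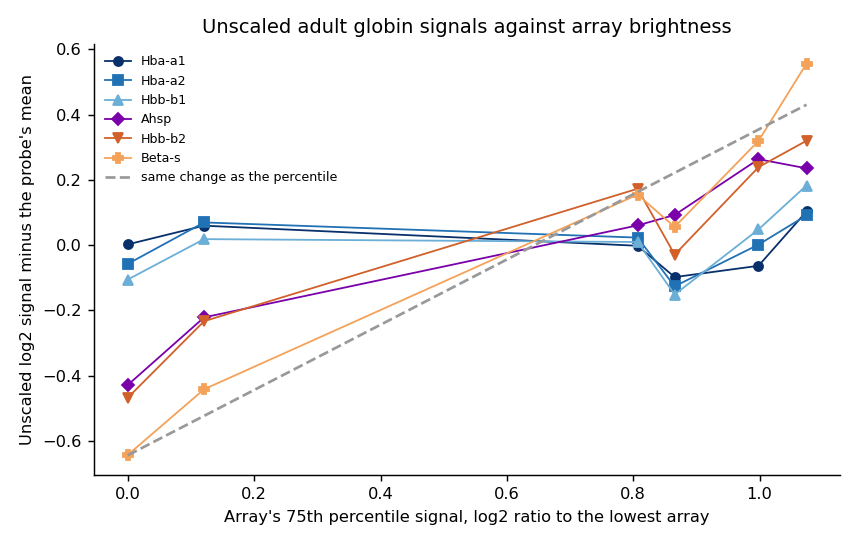
Unscaled log2 signal of each adult globin and Ahsp probe minus its own mean over the 6 arrays (vertical axis) against the 75th percentile signal of the array as a log2 ratio to the dimmest array (horizontal axis), with a line for each probe. Hba-a1, Hba-a2 and Hbb-b1 stayed almost level while Ahsp, Hbb-b2 and Beta-s rose towards the dashed line, which marks the same change as the percentile.

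Hbb-y, the epsilon-y globin of yolk sac red cells, read lower by both of its probes in arrays labelled P38α-/- than in P38α+/-, without passing the threshold. Its probe at base 379 read 89.3, 79.4 and 132 in P38α+/- and 36.7, 63.6 and 69.2 in arrays labelled P38α-/-. Its probe at base 559 read 55.3, 48.0 and 96.9 in P38α+/- and 20.7, 50.2 and 37.7 in arrays labelled P38α-/-. Both probes were well above background on all 6 arrays, at signals far under those of the adult chains. After scaling, the probe at base 379 read -3.19, -4.04 and -3.50 in P38α+/- and -4.35, -4.63 and -4.30 in arrays labelled P38α-/-, without overlap. The probe at base 559 read -3.88, -4.77 and -3.95 against -5.17, -4.97 and -5.18, also without overlap. Before scaling the signals at base 559 overlapped, and the ranks of both probes within the arrays overlapped too.

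The log2 fold changes of Hbb-y were -0.85 at base 379 (SE 0.25, interval -1.45 to -0.24) and -0.91 at base 559 (SE 0.27, interval -1.55 to -0.26). Neither passed the threshold, with limma adjusted p of 0.152 and 0.151, and an exact permutation test of 3 against 3 cannot go under the p of 0.10 that both gave. No member gene was called by limma, against a background of 0.149% of the 18764 probes tested, nor with replicate number as a block, against 0.346%, nor by the methods' t-test. At an unadjusted p of at most 0.05, 2 of 7 member probes were lower, both of Hbb-y, where 16.4% of all tested probes were. The same 2 probes were those whose genotypes did not overlap with arrays labelled P38α-/- lower, where 20.7% of all tested probes were. The 2 probes read the same transcript and are not independent.

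Within same-numbered mice the Hbb-y differences were -1.16, -0.59 and -0.80 at base 379 and -1.29, -0.20 and -1.23 at base 559, all negative. Those of Hbb-b2 were -0.11, -0.12 and -0.14 and those of Ahsp -0.09, -0.09 and -0.04, also all negative. Thus 4 of 7 member probes were lower in all 3 pairs, where 38.7% of all tested probes were. Without P38α+/- replicate 1 the differences were -0.65 and -0.75, with adjusted p of 0.252 and 0.262. Under quantile normalization they were -0.43 and -0.30, and from the authors' normalized values -0.36 and -0.17. Set against Hbb-b2 on the same array, Hbb-y at base 379 read -9.26, -9.83 and -9.17 in P38α+/- and -10.31, -10.30 and -9.83 in arrays labelled P38α-/-, on the log2 scale. These ratios overlapped, with a difference of -0.73 (exact permutation test, two-sided, p = 0.2, 0.4 after Benjamini-Hochberg adjustment over 6 such ratios). With both Hbb-y probes averaged the difference was -0.76 (exact permutation test, two-sided, p = 0.1, the smallest possible). Among the 6 ratios, those of Hba-a2 and of Hba-x to Hba-a1 were lower in arrays labelled P38α-/- without overlap (exact permutation test, two-sided, p = 0.1 for each, 0.3 after adjustment). The ratio of the Hba-a2 probe to the Hba-a1 probe differed by -0.07, and by 0.010 from the authors' values. Both of these probes were annotated to both genes, so it is a ratio of probes and not of genes. Hba-x was well above background on P38α+/- replicate 1 alone.

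**Figure D4:**
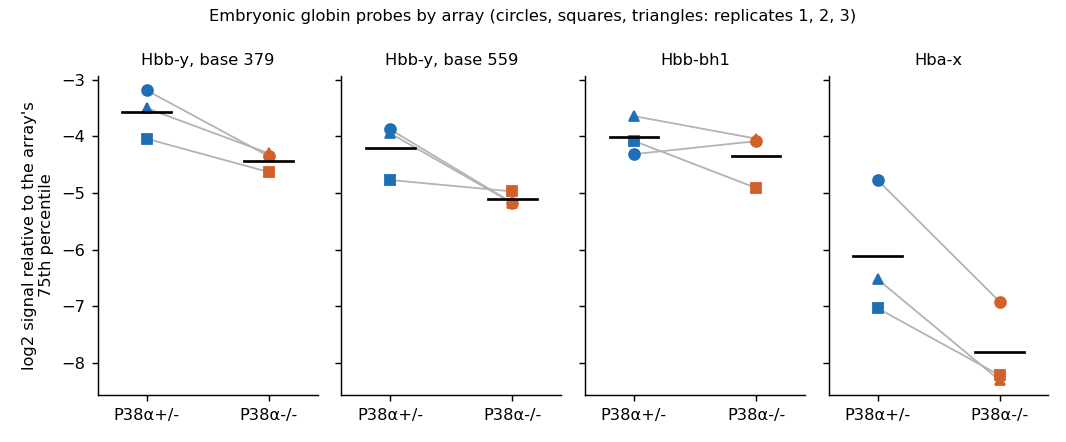
Scaled log2 signal of the 4 embryonic globin probes on each array, with circles, squares and triangles for replicates 1, 2 and 3, grey lines joining mice of the same number and black bars for the means. Both Hbb-y probes read lower under the P38α-/- label for all 3 numbers and their groups did not overlap, while Hbb-bh1 overlapped and Hba-x in arrays labelled P38α-/- was not well above background.

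Hbb-bh1, the embryonic beta-h1 globin, read 40.9, 77.4 and 119.8 in P38α+/- and 44.1, 52.4 and 82.9 in arrays labelled P38α-/-. The genotypes overlapped, and the pair of mice numbered 1 ran the other way from the pairs numbered 2 and 3. The log2 fold change was -0.33 with an interval of -1.06 to 0.40 (SE 0.30, adjusted p = 0.570). Its sign depended on the scaling, since Hbb-bh1 read 0.33 under quantile normalization, 0.15 with the percentile over all probes and 0.25 from the authors' normalized values. Hba-x, the embryonic zeta globin, read 29.8, 9.99 and 16.3 in P38α+/- and 6.19, 5.29 and 4.30 in arrays labelled P38α-/-. P38α+/- replicate 1 alone read it well above background, so 5 of 6 arrays hold only an upper bound and no fold is given. The embryonic probes together held 0.000547%, 0.000393% and 0.000592% of all probe signal in P38α+/- and 0.000305%, 0.000271% and 0.000353% in arrays labelled P38α-/- (exact permutation test, two-sided, p = 0.1, the smallest possible). This sum counts Hbb-y by both of its probes and includes the Hba-x readings that were not well above background. It is therefore not a result apart from that of Hbb-y.

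All 7 tested member probes had a fitted log2 fold change below 0, as did 66.9% of all tested probes, whose median was -0.16. The median over the member probes was -0.12. Relative to the median probe, Hba-a1 stood 0.16 above, Hba-a2 0.09, Ahsp 0.09 and Hbb-b2 0.04, and the Hbb-y probes 0.69 and 0.75 below. The signs of the adult globins and Ahsp changed with the scaling: with the percentile taken over all probes the median of all probes was 0.32, and Hba-a1 read 0.48 and Ahsp 0.41. That setting raised every tested probe by the same 0.48.

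**Figure D5:**
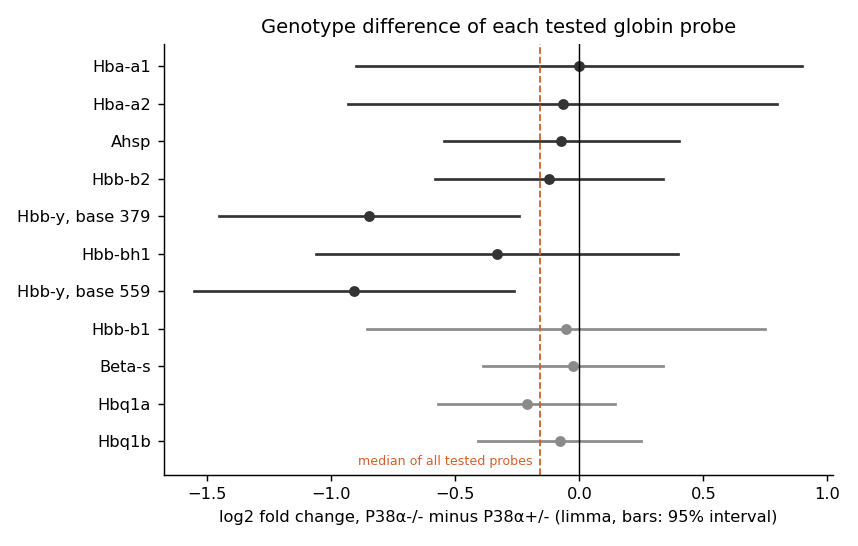
Fitted log2 fold change (P38α-/- minus P38α+/-, limma) of the 7 tested member probes (black) and of the 4 tested probes of other globins (grey), with bars for the 95% interval and a dashed line at the median of all tested probes. The intervals of both Hbb-y probes lay below 0, from -1.55 to -0.24 over the pair, and those of all other probes shown crossed it.

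Among other globins, the theta globins Hbq1a and Hbq1b were measured on all arrays. Hbq1a read 808, 1288 and 1293 in P38α+/- and 623, 1358 and 1033 in arrays labelled P38α-/-. After scaling its genotypes did not overlap, with a log2 fold change of -0.21 (SE 0.15, adjusted p = 0.455). Hbq1b read between 1896 and 3916, with a log2 fold change of -0.08 (SE 0.14, adjusted p = 0.783). Of the 11 probes of other globins 4 were tested, and 4, among probes of Hbb-bh2, myoglobin, neuroglobin and cytoglobin, were not well above background on any array.

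Of 30 regulators of globin transcription and translation, 26 were tested. Each was read by its brightest tested probe alone, and by that probe none was called, with a median log2 fold change of -0.01. Klf1, which activates adult beta globin, differed by 0.21 (SE 0.30, adjusted p = 0.736), and Gata1, a master factor of red cell genes, by 0.05 (SE 0.16, adjusted p = 0.884). The repressors of embryonic globin Bcl11a and Sox6 differed by 0.07 (SE 0.17, adjusted p = 0.844) and 0.03 (SE 0.23, adjusted p = 0.955). Bach1, a repressor that heme releases from DNA, differed by -0.04 (SE 0.23, adjusted p = 0.947). Eif2ak1, the kinase that slows globin translation when heme is short, differed by 0.15 (SE 0.16, adjusted p = 0.646). Myb, a factor of early progenitors, read -2.11 ± 0.87 (SD, n = 3) in P38α+/- and -3.18 ± 0.53 in arrays labelled P38α-/- (log2 fold change -1.08, SE 0.48, adjusted p = 0.267). Without overlap, 1 of the 26 regulators was higher and 4 were lower in arrays labelled P38α-/-, where 6.93% and 20.7% of all tested probes were. These 5 are named after their values were seen. Mafg, a small Maf partner of Nfe2, was the higher one at 0.45 (SE 0.17, adjusted p = 0.210). The lower ones were Klf3, a repressor of the Klf family, at -0.73 (SE 0.15, adjusted p = 0.101) and Nfe2l1, a relative of Nfe2, at -1.09 (SE 0.24, adjusted p = 0.105). Nr2c2, a nuclear receptor that represses embryonic globin, read -0.41 (SE 0.19, adjusted p = 0.274) and Atrx, a chromatin remodeller of the alpha globin locus, -0.31 (SE 0.19, adjusted p = 0.405).

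Each cell type marker was read by its brightest probe alone, and for fold changes and calls by its brightest tested probe. Defining markers of the erythroid lineage were present: 13 of 14 were well above background on all 6 arrays, and the 13 tested had a median log2 fold change of -0.0006. Their summed scaled signal was 8.16 to 8.42 (log2) in P38α+/- and 8.08 to 8.46 in arrays labelled P38α-/-. Of the other cell types, the summed markers of neutrophils, the brightest of these lists, read lower in arrays labelled P38α-/-, as the Hbb-y probes did, at 6.78 to 8.16 in P38α+/- and 5.88 to 6.38 in arrays labelled P38α-/-. All 9 neutrophil markers were well above background on all arrays, with a median log2 fold change of -1.36, and 7 did not overlap between the genotypes, where 20.7% of all tested probes did not with this direction. None was called, where 0.149% of all tested probes were. Of 5 progenitor markers, Kit, Cd34, Myb and Myc were tested, with summed signals of -2.02 to -0.59 and -2.87 to -1.83, which overlapped. Of 8 B cell markers 3 were tested, with summed signals of -2.85 to 0.30 and -4.13 to -2.39, which overlapped. Kit, Cd34, Ebf1 and Ms4a1 were well above background on 5, 4, 3 and 3 arrays, so their place among the tested genes rests on the arrays where they were bright. For Ebf1 and Ms4a1 these were the P38α+/- arrays. The other side of their differences, also in the block fit below, holds no reading well above background. No marker of these lists was called by limma, while with replicate number as a block Kit, Cd34 and the B cell factor Ebf1 were (adjusted p = 0.0482 for each), against 0.346% of all tested probes. Of the T or NK cell and macrophage lists, 3 and 7 markers were tested, with medians of -0.32 and -0.91, none called, and 1 marker of each list well above background on no array. Their summed signals were -0.50 to 1.39 and -0.49 to 0.81 in P38α+/- and -0.91 to -0.54 and -1.16 to -0.21 in arrays labelled P38α-/-. The T or NK sums did not overlap, and the macrophage sums did. Of the tested T or NK markers Nkg7 was by far the brightest, and it alone was lower without overlap (log2 fold change -1.67). Cd3e (-0.32) and Cd4 (-0.17) overlapped, so the T or NK sums do not describe the whole list. The megakaryocyte or platelet list was mixed, with 3 of 6 markers tested, a median of 0.22 and none called. Pf4 was lower without overlap (log2 fold change -1.42), where 20.7% of all tested probes were, while Itga2b (0.22) and Gp9 (0.33) overlapped. The summed signals of this list, in which Gp9 was the brightest of the tested markers, were 0.64 to 1.05 and 0.86 to 1.21. Its other 3 markers were well above background on no array. The part of these markers in the Hbb-y difference was not tested.

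Patterns over the 6 arrays are given as Pearson correlations of scaled log2 values, which share the scaling percentile. Because the unscaled signals of Hba-a1, Hba-a2 and Hbb-b1 ranged only 1.15-fold to 1.26-fold while the percentile ranged 2.11-fold, their scaled values largely mirror the percentile by construction. Hba-a1 correlated at 0.997 with Hba-a2, 0.991 with Hbb-b1, 0.957 with Ahsp, 0.914 with Hbb-b2 and 0.31 with Beta-s. The 2 Hbb-y probes correlated at 0.934 with each other, at 0.26 and 0.08 with Hba-a1, and at 0.47 and 0.30 with Hbb-bh1. Among 11645 probes well above background on all arrays with enough spread, those most like Hba-a1 were H2ac10 (0.999), Hint2 (0.998) and H2aj (0.997), which share that percentile too. Those most like Ahsp with a gene name were Sgf29 and Wdr4, both at 0.998, and Phospho1 (0.967) was most like Hbb-bh1. These are descriptions over 6 arrays.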

How the data were processed

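The authors scanned 6 1-colour arrays with Agilent Feature Extraction 10.7.3.1 (annotation build mm9) and deposited the linear signal intensity of each spot, background-subtracted within the array. They also deposited a table of normalized intensity, on a linear scale with equal distributions on all arrays. Its column for P38α-/- replicate 2 had a rank correlation of 0.897 with that replicate's scanner file against 1.00 for the others. Control spots and outlier flags were left out. The log2 intensity, less each array's 75th percentile over probes that all 6 arrays read well above background, was fitted with limma 3.58.1 (R 4.3.3), P38α-/- against P38α+/-, with Benjamini-Hochberg adjustment over all 18764 tested probes. The limma fit and its adjustment were also run on simulated scaled values, drawn independently for each probe and array. The scaling, the probe filter and the replicate block were not part of that simulation. Same-numbered arrays of the 2 genotypes deviated together (r = 0.54, 0.31 and 0.42, against -0.48 to 0.18 for the other pairs), so replicate number was tried as a block. The labels do not say what arrays of the same number share, and whether mice or array handling differed was not tested. By its barcode, P38α-/- replicate 3 was alone on another slide than all other arrays, so slide was also tried as a block. Accessions gave current symbols for 27509 probes, and 24219 kept the file's name. The named genes were all members, the other globins, 7 regulators of a longer list, and for each member the 3 genes with the highest Pearson correlation among probes with at least the lower quartile's SD. Members and lists were chosen with earlier results of these data known. Precision is limited by the number of arrays.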

Additional observations from a re-analysis of the deposited data

How the results depend on the processing

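No member gene was called under any of the 18 alternatives run, with 0 to 2 member probes at an unadjusted p up to 0.05. Both Hbb-y probes stayed negative in all of them, from -0.17 to -1.19, while the lowest adjusted p among the members lay between 0.084 and 1.00. The count at the unadjusted p was 0 under quantile normalization, the percentile over all probes, E1A centring, normexp, the authors' values and no scaling. It was 2 under every other alternative, and these kept the main scaled values. With the percentile over all probes Hbb-y read -0.37 at base 379 and -0.43 at base 559 (limma adjusted p = 0.523 and 0.471). The count of all genes called moved from 27 (21 higher, 6 lower) to 15 under quantile normalization, 737 (409 higher, 328 lower) with the percentile over all probes, 8 (2 higher, 6 lower) after centring on the E1A spikes, 17 with normexp, 0 without a filter on dim probes, 76 among probes above background on all 6 arrays, 11 from the authors' values, 63 (15 higher, 48 lower) with the replicate block, 0 with the slide block, 1685 (244 higher, 1441 lower) with array weights, 2 by the methods' t-test and 115 (25 higher, 90 lower) with no scaling between arrays. The last, and ranks without each array, were added after seeing the data. Leaving out each array gave 0 to 58 genes: 20 without P38α+/- replicate 1, 58 without P38α+/- replicate 3, and 0 without P38α+/- replicate 2 or any P38α-/- replicate.

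Several log2 fold changes changed sign. Under quantile normalization Hba-a2 read 0.015 and Hbb-bh1 0.33. With the percentile over all probes Hba-a1 read 0.48, Hba-a2 0.42, Hbb-b2 0.36, Hbb-bh1 0.15 and Ahsp 0.41. After E1A centring Hba-a1 read 0.14, Hba-a2 0.073, Hbb-b2 0.016 and Ahsp 0.067. Hba-a1 read 0.0091 with normexp and 0.0045 with no scaling, and with the slide block, which equals leaving out P38α-/- replicate 3, Hba-a1 read 0.16 and Hba-a2 0.090. The authors' values gave Hba-a2 0.010 and Hbb-bh1 0.25, and, like quantile normalization, set Hba-a1, the top probe of every array, to a single value. Without each array in turn the range was -0.32 to 0.29 for Hba-a1, -0.38 to 0.21 for Hba-a2 and -0.20 to 0.061 for Ahsp. By construction the percentile over all probes moved every tested probe by the same 0.48 and E1A centring by the same 0.14; for the other settings the cause was not tested. The ratio of Hbb-y to Hbb-b2 shrank from -0.73 to -0.28 with normexp and with the authors' values, and was -0.76 with both Hbb-y probes averaged. The replicate block changed no member's call. Embryonic probes lay near the detection limit, and 3 mice a genotype limit the precision.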
